A study of Mus musculus with 24 samples.

Results

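The 10 genes described here are mt-Nd1, mt-Nd2, mt-Nd4, mt-Nd5, mt-Nd6, mt-Cytb, mt-Co1, mt-Co2, mt-Co3 and mt-Atp6, chosen by symbol from a count table of 33619 genes. They are 10 of the 13 protein-coding rows of the mitochondrial chromosome in that table, listed by symbol with earlier results of these data known, and the 3 left out had at most 14 counts in any library. The libraries came from β cells of mice about 7 weeks old, sorted from dissociated islets by the Apple fluorescent reporter that all groups inherited from Ins1Apple fathers. The dams were wild-type CD1 females, 7 weeks old, fed for 2 weeks before mating on control chow (ND), on high-fat food (HFD) or on food low in protein (LPD), and all mice were kept on the control diet from birth. Female and male offspring of each diet gave 6 groups of 4 libraries, 24 in all. Neither litters, dams nor pooling of animals are named in the labels, so p-values measure only the spread between these samples.

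Mitochondria carry a small circular genome with a heavy and a light strand, each transcribed as a long precursor that is cut into ribosomal, transfer and messenger RNAs. The messenger RNAs encode core subunits of respiratory complexes I, III and IV and of the ATP synthase (complex V), while all other subunits, and all of complex II, are encoded in the nucleus. In β cells, the ATP made by this chain from glucose metabolism closes potassium channels and so triggers insulin secretion. Of the 10 genes, 9 lie on the heavy-strand transcript in the annotation (plus strand), and mt-Nd6 is the single one transcribed the opposite way.

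The libraries held 12433228 to 26375565 counts (median 20719858), of which the insulin genes Ins1 and Ins2 took 7.65% to 27.5%, and the β-cell marker list was detected in all 6 groups. The HFD female libraries stood apart: 13225 to 19404 genes had at least 1 count there, against 19160 to 25830 in the other 20 libraries. Of their detected genes, 4.4% to 8.18% had fewer than 10 counts, against 13.2% to 31.9% elsewhere. Diets were taken from the column names. A line of library numbers above these names would move each of the 24 columns to another diet, and would also change the sex of 8. Sex-linked transcripts matched the column names in 24 libraries and the library numbers in 16, and they cannot tell which diet label is right in those 16.

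Nuclear copies of mitochondrial DNA bear on the levels, so the gene sequences were compared with all other annotated transcripts (GENCODE M21, GRCm38). A stretch of chromosome 1 (chr1:24611535-24616197) holds 7 annotated pseudogenes, and mt-Co2, mt-Co3 and mt-Atp6 are repeated there without a mismatch, as are bases 1 to 876 of mt-Nd4. The opening bases of mt-Co2 (chrM:7013-7102, plus strand) and of its copy Gm28661 (chr1:24615476-24615565, minus strand) show why a read from one cannot be placed by sequence, whereas mt-Co1 (chrM:6390-6479, plus strand) and Gm29216 (chr1:24616099-24616188, minus strand) differ at a single base. The start of mt-Nd6 (chrM:13981-14070, minus strand), the gene that the diet comparisons turn on, is set against its copy Gm11408 (chr4:80003825-80003914, minus strand). Capitals mark bases that differ within a pair.
mt-Co2: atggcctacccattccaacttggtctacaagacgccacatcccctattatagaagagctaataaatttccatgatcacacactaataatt
Gm28661: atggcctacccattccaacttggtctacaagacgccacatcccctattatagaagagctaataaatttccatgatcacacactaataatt
mt-Co1: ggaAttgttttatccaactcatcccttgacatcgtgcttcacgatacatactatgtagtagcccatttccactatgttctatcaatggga
Gm29216: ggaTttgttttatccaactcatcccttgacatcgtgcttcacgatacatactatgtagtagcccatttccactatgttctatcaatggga
mt-Nd6: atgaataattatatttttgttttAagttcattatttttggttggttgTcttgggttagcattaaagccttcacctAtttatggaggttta
Gm11408: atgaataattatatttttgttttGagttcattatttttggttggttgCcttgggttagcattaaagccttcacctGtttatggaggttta

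Over windows of 150 bases, 99.8% of mt-Co3, 99.4% of mt-Co2 and 99.4% of mt-Atp6 occurred letter for letter in a nuclear transcript. The shares were 59.2% for mt-Nd4 and 23.6% for mt-Co1, and no window of mt-Nd1, mt-Nd2, mt-Nd5, mt-Nd6 or mt-Cytb was found. The copy of mt-Nd6 had 33 mismatches in 519 bases (93.6% identity) and 0 to 11 counts per library, against 572 to 3798 counts for mt-Nd6. The sources used here do not state how reads with several matching places were counted. The values of mt-Co2, mt-Co3 and mt-Atp6, and in part those of mt-Nd4 and mt-Co1, are therefore uncertain.

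Levels per gene length, as FPKM (counts scaled by gene length and library total), differed widely among the 10 genes. mt-Co1, the catalytic core subunit of complex IV, was highest in all 24 libraries, with 904 to 2018 FPKM (median 1499). mt-Cytb, the cytochrome b of complex III, ranked next in all 24, at 351 to 927 FPKM (median 729). Among complex I genes, which encode membrane subunits of the enzyme that takes electrons from NADH, the medians were 560.1 FPKM for mt-Nd1, 432 for mt-Nd5, 312 for mt-Nd2, 236 for mt-Nd4 and 194 for mt-Nd6. Their order was not the same in every library: mt-Nd1 held rank 3 of the 10 in 18 libraries and rank 4 in the others, and mt-Nd4 and mt-Nd6 exchanged places between ranks 5 and 7.

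A gap separated these 7 genes from the remaining 3. mt-Co2 and mt-Co3, the other mitochondrial core subunits of complex IV, had 4.47 to 8.44 and 1.86 to 4.69 FPKM, and mt-Atp6, the membrane subunit of the proton channel of ATP synthase, had 1.78 to 5.24 FPKM. mt-Co1 exceeded mt-Co2 by 176-fold to 398-fold per length, although both encode subunits of the same enzyme. In counts, the 3 genes had 18 to 145 per library. The chromosome 1 copies of mt-Atp6, mt-Co2 and mt-Co3 had 51 to 159, 49 to 165 and 47 to 194 counts, similar to or above the genes themselves. Of the 10 genes, these 3 are the ones whose sequence is almost wholly shared with a nuclear transcript. Among the other protein genes of the chromosome, mt-Nd3 and mt-Nd4l (97.0% and 98.0% of windows shared) were also low. mt-Atp8 had at most 3 counts, and 0 of its 55 windows occurred in an annotated nuclear transcript. Nuclear sequence outside annotated transcripts was not searched, so whether mt-Atp8 has a copy there is not known. The part of shared sequence in the low counts of all these genes was not tested.

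**Figure D1:**
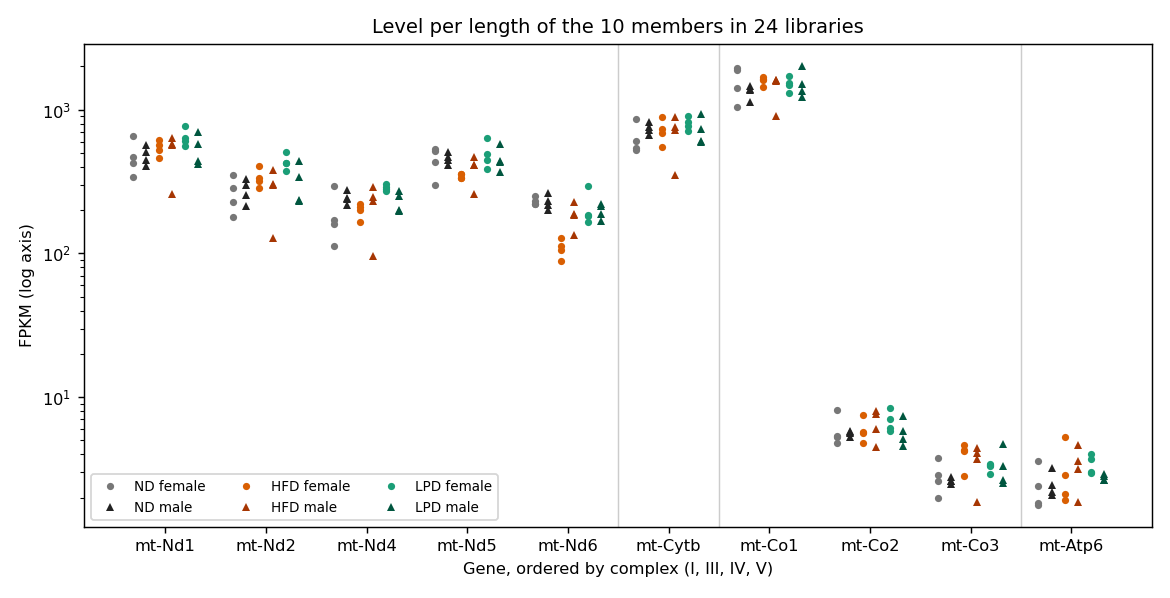
FPKM (log axis) of each gene in every library, grouped by complex and coloured by maternal diet, with circles for females and triangles for males. mt-Co1 lies at 904 to 2018 FPKM, whereas mt-Co2, mt-Co3 and mt-Atp6 lie at 1.78 to 8.44 FPKM in all groups.

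**Figure D2:**
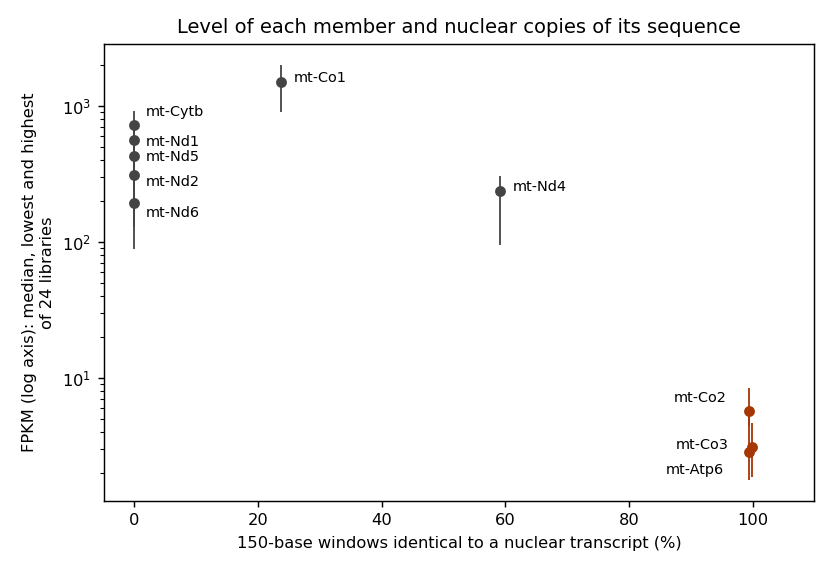
Median FPKM over 24 libraries (log axis, bars from the lowest to the highest library) against the percent of 150-base windows of each gene found without a mismatch in a nuclear transcript. Of these 10 genes, the 3 above 99% (red) are the 3 below 9 FPKM, while mt-Nd4, at 59.2%, lies with the abundant genes.

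The other 20 rows of the mitochondrial chromosome were sparse apart from the ribosomal RNAs, which the library kit depletes. mt-Rnr2 had 5266 to 25297 counts and mt-Rnr1 had 511 to 1498 in 23 libraries, with 13713 in ND female 4. The remaining protein genes mt-Nd3, mt-Nd4l and mt-Atp8 had 0 to 6, 0 to 14 and 0 to 3 counts and were not tested. Of the 15 transfer RNA rows, mt-Tp had 62 to 275 counts, mt-Tc 0 to 90, mt-Tl2 0 to 81, mt-Ts2 0 to 75, mt-Te 0 to 27, mt-Tn 0 to 24, mt-Ty 0 to 18, mt-Th 0 to 16 and mt-Ti 0 to 9. The rows mt-Tq and mt-Ta reached 6 counts, mt-Tw 5, mt-Tm 4, and mt-Tv and mt-Tl1 2.

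Whether maternal diet shifted the whole set was asked first from the share of all counts that fell on the 10 genes. Shares were 0.646%, 0.442%, 0.569% and 0.373% in ND females and 0.532%, 0.50%, 0.429% and 0.530% in ND males. In HFD females they were 0.561%, 0.484%, 0.521% and 0.477%, and in HFD males 0.532%, 0.587%, 0.542% and 0.286%. LPD females had 0.495%, 0.562%, 0.566% and 0.665%, and LPD males 0.463%, 0.686%, 0.427% and 0.532%. Every pair of groups compared overlapped, and HFD male 4 was the lowest of all libraries, as it was in CPM for 7 of the 10 genes. The widest 95% Wilson interval of a library's share was 0.0082 percentage points, so counting error was far below the spread between libraries. Over 9 comparisons between groups, exact 2-sided permutation tests gave p of 0.143 at the lowest and 1 after Benjamini-Hochberg adjustment, where 4 against 4 libraries cannot go below 0.0286. After adjustment over 9 tests, a single comparison at that floor would not pass 0.05. The adjusted values therefore cannot exclude a difference in a single comparison. The lowest p was for HFD against LPD in females, with means of 0.511% ± 0.039 and 0.572% ± 0.070 (SD, n = 4). In bulk samples, fewer cells of a type and less RNA per cell cannot be told apart.

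Differences for single genes were tested on counts with edgeR's quasi-likelihood test over 19235 genes, all 10 members included, and called at a Benjamini-Hochberg adjusted p below 0.05. Levels are given as CPM, counts scaled to a common library total after TMM adjustment. In females under HFD, 1 of the 10 genes differed from ND, and it was lower, while 9.33% of all genes tested were called, 7.35% as lower. This gene was mt-Nd6, a membrane subunit of complex I. Against LPD in females, mt-Nd6 and mt-Nd5 were lower in HFD, 2 of 10, beside 8.64% of all genes called and 7.04% as lower. The share of genes called in HFD females was thus of the same order as the share of the members.

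mt-Nd6 had 49.6, 63.5, 56.4 and 43.1 CPM in the 4 HFD female libraries. In ND females it had 118, 117, 107 and 118 CPM. LPD females had 83.0, 92.9, 91.5 and 153 CPM. All HFD female libraries therefore lay below all libraries of both other female groups. In males the level was 102, 127, 102 and 71.6 CPM under HFD, and 137, 123, 109 and 123 CPM under ND. LPD males had 119.9, 119.7, 93.9 and 93.0 CPM. Over the 20 libraries outside the HFD females, the lowest value was 71.6 CPM (HFD male 4), above the highest HFD female value of 63.5 CPM.

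Group means were 53.1 ± 8.76 CPM in HFD females and 115 ± 5.23 CPM in ND females (SD, n = 4), and mt-Nd6 fell by 1.11 ± 0.17 on the log2 scale (SE; edgeR adjusted p = 0.000177, lower in 4 of 4). Against LPD females, with 105 ± 32.4 CPM, it fell by 0.98 ± 0.17 (edgeR adjusted p = 0.000589, lower in 4 of 4). HFD males had 101 ± 22.8 CPM and exceeded HFD females by 0.92 ± 0.17 (edgeR adjusted p = 0.00111, higher in 4 of 4). In this sex comparison mt-Nd6 was the 1 called gene of the 10, beside 9.91% of all genes, 7.46% as higher in males. limma-voom with sample quality weights did not call any of the 3 (adjusted p = 0.11, 0.337 and 0.216), and a fit of only the groups compared kept the first (adjusted p = 0.0054) but not the difference from LPD females (0.109) or from HFD males (0.0658).

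In males the HFD and ND values of mt-Nd6 differed by -0.29 ± 0.17 (edgeR adjusted p = 0.691, below all ND males in 3 of 4), with a 95% interval of -0.62 to 0.04. The difference of the HFD effect between the sexes was itself tested: it was 0.82 ± 0.24 and missed the threshold (edgeR adjusted p = 0.0503), in a test that called 3.64% of all genes. It passed in DESeq2 (adjusted p = 0.0258) and without HFD male 4 (edgeR adjusted p = 0.021). Of 24 edgeR fits that each left out a single library, 6 called it, with adjusted p up to 0.125. Of 12 other settings, 4 called it, with adjusted p up to 0.254. A difference of the HFD effect between the sexes was therefore on the edge of the threshold in the main fit and not called in most others. Under LPD, mt-Nd6 had values of -0.13 ± 0.17 in females and -0.21 ± 0.17 in males relative to ND (edgeR adjusted p = 1 in both).

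Because a ratio within a library does not depend on scaling, mt-Nd6 was also set against mt-Nd5, its neighbour on the opposite strand. HFD females had 8.48, 10.9, 8.96 and 7.54 mt-Nd6 counts per 100 mt-Nd5 counts. The means were 8.96 ± 1.40 in HFD females, 15.6 ± 4.33 in ND females, 11.9 ± 1.07 in LPD females and 13.5 ± 0.906 in HFD males (SD, n = 4). The lowest LPD female and the lowest LPD male library each had 10.6, so HFD female 2 at 10.9 lay within the 10.6 to 21.3 range of the other 20 libraries. As a percent of the counts of all 10 genes, mt-Nd6 made up 0.964% to 1.38% in HFD females and 1.62% to 3.10% in the other 20, with no overlap. These ratios use the same counts as the test and are given as a description.

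Several values moved with the lower mt-Nd6. The HFD female libraries are those with few detected genes, and without HFD female 1 and 4, which had the fewest, mt-Nd6 fell by 0.97 against ND (edgeR adjusted p = 0.00345) and by 0.82 against LPD (adjusted p = 0.011). Hepatocyte markers other than Ttr, which islet cells also express, summed to 121 to 227 CPM in HFD females with 9 of 9 detected, against 0.299 to 0.963 CPM in ND females and 0.462 to 1.19 CPM in LPD females, where 5 of 9 were detected. In HFD males they summed to 66.1 to 115 CPM, also with 9 of 9. Cps1, Cyp3a11 and Mug1 were at 0 in all ND and LPD libraries. Stromal, endothelial and immune lists each had 2 of 5 markers at 0 in all HFD female libraries and none at 0 throughout another group, with sums of at most 7.20 CPM in every group. The delta-cell list summed to 263 to 356 CPM in HFD females, below the 427 to 637 of ND and 420 to 511 of LPD females. It overlapped the 297 to 572 CPM of ND males and the 352 to 504 CPM of LPD males, and HFD males had 385 to 789 CPM. Their part in the result was not tested. By the library numbers in place of the column names, mt-Nd6 in HFD against ND females would be 0.98 higher (adjusted p = 0.000589), because the libraries named HFD female would then be ND female.

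The annotation overlaps mt-Nd6 (chrM:13552-14070, minus strand) and mt-Nd5 (chrM:11742-13565, plus strand) by 14 bases. The library kit marks strand, but the sources used here do not state the strand setting of the counting. Reads of the heavy-strand precursor across mt-Nd6 cannot be told apart from mt-Nd6 if strand was ignored. Another light-strand row with counts in every library, mt-Tp, had 5.74 to 8.90 CPM in HFD females and 5.23 to 12.4 CPM in ND females. Its difference between them was -0.49 ± 0.32 (edgeR adjusted p = 0.384), which did not pass. Of the other light-strand rows tested, mt-Tc differed in HFD females by -2.12 from ND (edgeR adjusted p = 0.281) and -3.47 from LPD (edgeR adjusted p = 0.0633). mt-Tn differed by 0.05 and -0.85 (edgeR adjusted p = 0.984 and 0.707). On the plus strand, mt-Rnr1 was called lower in HFD than in ND females (-2.03 ± 0.55, edgeR adjusted p = 0.0195), with 13713 counts in ND female 4. In CPM, mt-Rnr1 had 545 in ND female 4 and 37.0, 55.3 and 50.2 in the other ND females. HFD females had 57.6, 30.5, 42.1 and 38.5 CPM, so no separation remained without ND female 4. The other ribosomal and transfer RNA rows tested on this strand were also lower in HFD than in ND females, but not called. They were mt-Rnr2 (-0.69, edgeR adjusted p = 0.197), mt-Ts2 (-2.83, edgeR adjusted p = 0.117) and mt-Tl2 (-2.31, edgeR adjusted p = 0.15).

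**Figure D3:**
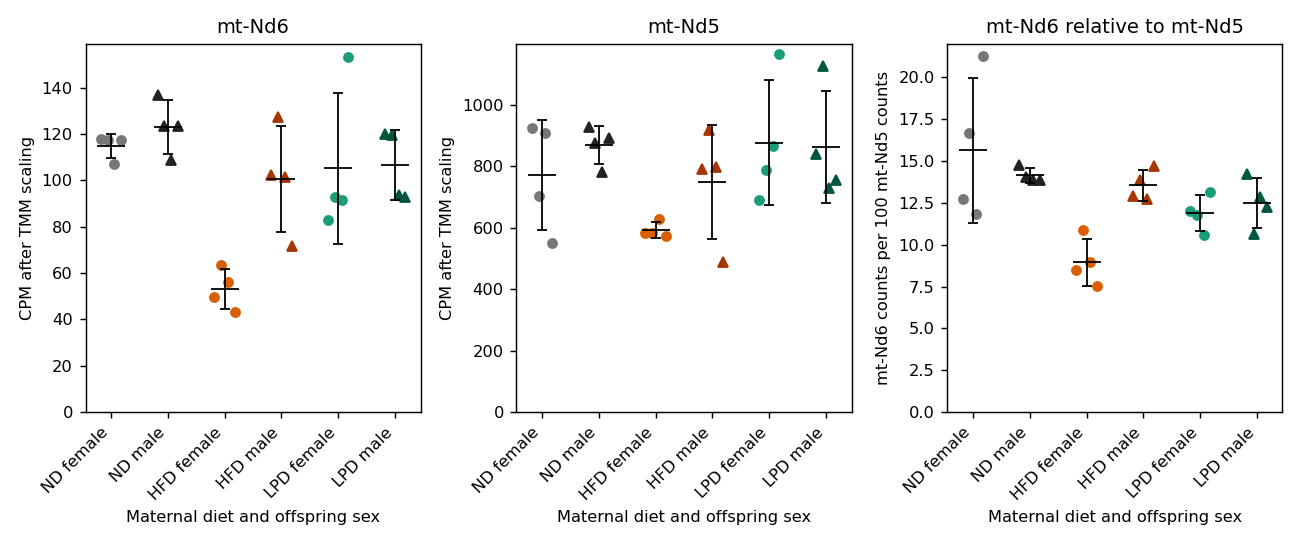
mt-Nd6 and mt-Nd5 in CPM, and mt-Nd6 counts per 100 mt-Nd5 counts, in the 24 libraries by group (points), with the mean and SD of 4 libraries (bars). The HFD female libraries lie at 43.1 to 63.5 CPM of mt-Nd6, below all others, and at 572 to 629 CPM of mt-Nd5.

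mt-Nd5, another membrane subunit of complex I, had 584, 584, 629 and 572 CPM in HFD females. LPD females had 689.8, 789.8, 867 and 1165 CPM. ND females had 926, 704, 907 and 551 CPM. The HFD values lay below all LPD values but within the ND range. mt-Nd5 fell by 0.57 ± 0.18 in HFD against LPD females (edgeR adjusted p = 0.0437, lower in 4 of 4). Its difference from ND was -0.38 ± 0.18 (edgeR adjusted p = 0.199). The call against LPD did not hold with DESeq2 size factors in edgeR (adjusted p = 0.0746), on library totals (0.0763), with voom (0.519), on log2 FPKM plus 1 (0.12) or plus 0.1 (0.0999), in a fit of the groups compared alone (0.19) or with both HFD female 1 and 4 left out (0.111). Among single libraries, it was lost without HFD female 1 (0.0619), HFD female 4 (0.0668), LPD female 2 (0.0505), LPD female 3 (0.0761), LPD female 4 (0.196) or ND male 2 (0.0505). In males mt-Nd5 had 791, 919.8, 799.5 and 487 CPM under HFD, 927, 877, 782 and 892 CPM under ND and 841, 1127, 729.5 and 757 CPM under LPD, and none of these differences passed.

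The other complex I genes were not called in any of the 11 comparisons, and their highest group was LPD females in each case. mt-Nd2 had 378, 428, 432 and 529.5 CPM in LPD females, against 357, 211, 276 and 190.1 CPM in ND females. No ND female library reached the lowest LPD value. The difference was 0.77 ± 0.25 (edgeR unadjusted p = 0.00429, adjusted p = 0.224), past the threshold with voom quality weights (adjusted p = 0.0422) and in a fit of those groups alone (0.0407). For mt-Nd4, LPD females had 362, 412, 378 and 403 CPM and ND females 398, 140.2, 206 and 238 CPM, so ND female 1 lay within the LPD range, and the difference was 0.67 ± 0.25 (edgeR adjusted p = 0.357). mt-Nd4 was also below all LPD females in the 4 HFD female libraries, at 249, 288, 281 and 213 CPM (-0.59 ± 0.25, edgeR adjusted p = 0.152), a difference that passed with no filter on low counts (edgeR adjusted p = 0.041). mt-Nd1 had 517, 596, 560.2 and 739.9 CPM in LPD females and 619, 290.5, 419 and 417 CPM in ND females, a difference of 0.47 ± 0.22 (edgeR adjusted p = 0.637).

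Complex III was represented by mt-Cytb, which passed in no comparison. Its group means ran from 697 ± 192 CPM in ND females to 901 ± 108 CPM in LPD females, with HFD females at 767 ± 138, HFD males at 823 ± 290.1, LPD males at 853 ± 194 and ND males at 883 ± 75.1 CPM (SD, n = 4). These neighbours differed by less than their spread. Of all its differences, that of LPD against ND females was 0.37 ± 0.21 (edgeR adjusted p = 0.809).

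Among complex IV genes, mt-Co1 had nearly equal means in females: 2326 ± 621 CPM under ND, 2301 ± 124 under HFD and 2299 ± 288 under LPD (SD, n = 4). The HFD against ND difference in females was -0.02 ± 0.18 (edgeR adjusted p = 0.972) with a 95% interval of -0.37 to 0.34. In males it had 2599, 2667, 2630.1 and 1438 CPM under HFD, 2130.0, 2205, 1815 and 2497 CPM under ND and 2182, 3351, 2059 and 2236 CPM under LPD. HFD male 4 was low and LPD male 2 high within otherwise narrow groups. mt-Co2 and mt-Co3 averaged 3.82 to 4.72 and 2.11 to 2.94 CPM over the groups, and mt-Atp6 of complex V 1.57 to 2.39 CPM. At 18 to 145 counts, their log2 differences carried SEs of up to 0.46 in the comparisons of 2 groups, and none passed.

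Counts over the 10 genes in the remaining comparisons were as follows. In HFD against ND males 0 of 10 were called (1.25% of all genes), in LPD against ND males 0 (0.187%) and in HFD against LPD males 0 (2.41%), and none of the 10 had an unadjusted p below 0.05 in edgeR in any of these. DESeq2, limma-voom and limma-trend called 0 in them as well. In LPD against ND females edgeR called 0 of 10 (0.307% of all genes), with 3 at an unadjusted p below 0.05, and voom called 1 while DESeq2 and limma-trend called 0. Males against females gave 0 of 10 under ND (0.598%) and under LPD (0.27%), 0 with an unadjusted p below 0.05, and 1 called by voom under LPD, which was mt-Nd2. The differences of the diet effects between sexes gave 0 for HFD and 0 for LPD (0.0052% of all genes), each with 1 gene at an unadjusted p below 0.05. For HFD, DESeq2 called 1, whereas voom and limma-trend called 0, and for LPD all called 0.

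**Figure D4:**
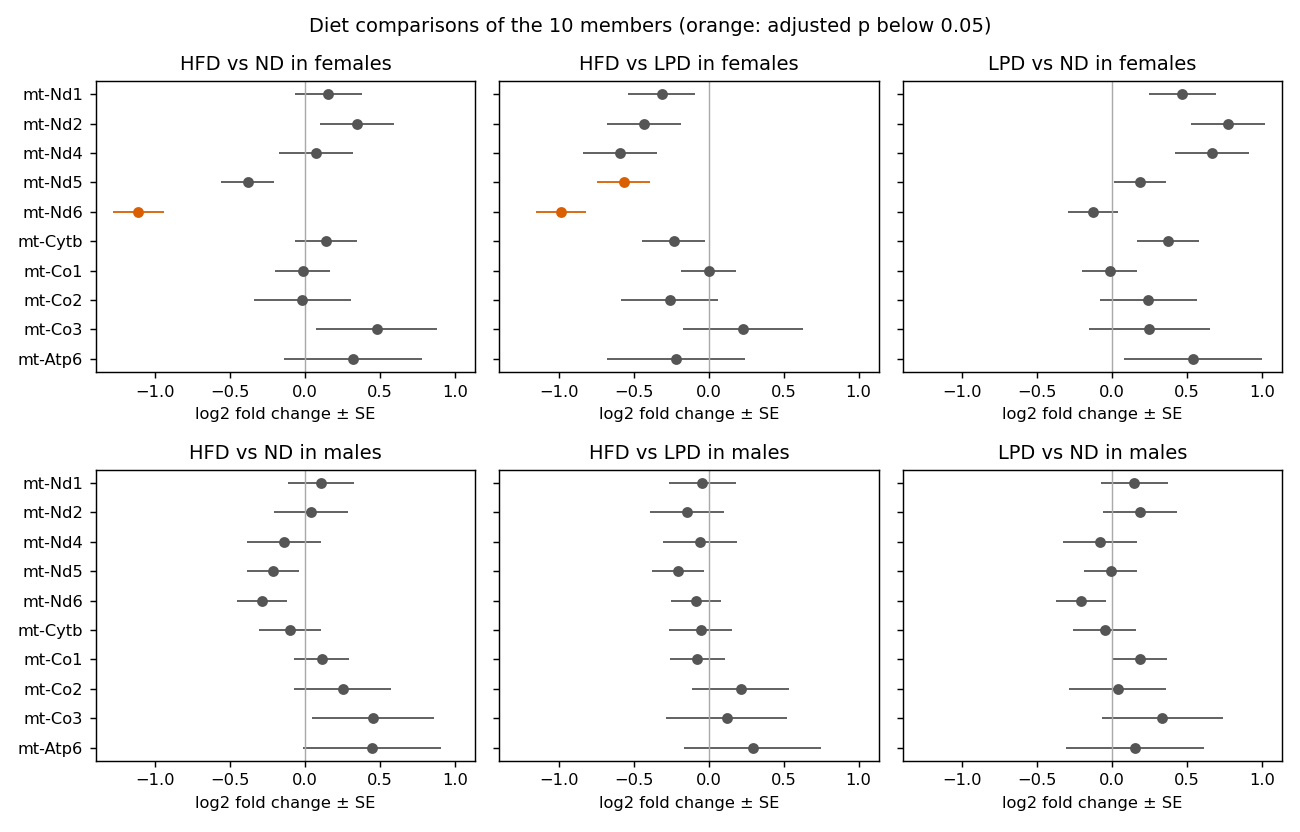
log2 fold changes (points) with SE (bars) of the 10 genes in the 6 diet comparisons, ordered by complex, with called genes in orange. Orange points are mt-Nd6 at -1.11 in HFD against ND females, and mt-Nd6 at -0.98 and mt-Nd5 at -0.57 in HFD against LPD females, and no gene is orange in males.

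How the members varied together over libraries was described by Pearson correlation of log2 CPM. Libraries share their depth and scaling factor across genes, so these values carry no p. The 6 abundant heavy-strand genes had r of 0.57 to 0.93 over their 15 pairs (median 0.78, 24 libraries), whereas mt-Nd6 had r of 0.13 to 0.75 with each of them (median 0.31). Outside the mitochondrial chromosome, the genes whose level was most like the mean of the 10 were Gm10925 (r = 0.80), Selenop (0.80), Ggps1 (0.77), Sp3 (0.75) and Gm13341 (0.75). Gm10925 is the chromosome 1 copy of mt-Atp6, and Gm13341 is a copy of mt-Co2 on chromosome 2 with 95.9% identity. Selenop encodes a secreted selenium carrier, Ggps1 an enzyme of isoprenoid synthesis and Sp3 a transcription factor.

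The nuclear genes of the same complexes were then counted, since each enzyme is assembled from both genomes. Of 82 nuclear subunits in the table, 81 were tested. In HFD against ND females 1 was higher and 11 were lower, with a median log2 fold change of -0.16, beside 0.11 for the 10 mitochondrial genes and -0.09 for all genes. Over all genes 9.33% were called, 7.35% as lower. The mitochondrial median was -0.04 without ND female 2 and 0.36 without ND female 1. Cox7c (-0.84 ± 0.20, edgeR adjusted p = 0.008) and Cox4i1 (-0.51 ± 0.14, adjusted p = 0.0227), small subunits of complex IV, were among those that fell, as were the complex I accessory subunits Ndufb8 (-0.54 ± 0.13, adjusted p = 0.0112) and Ndufb7 (-0.67 ± 0.17, adjusted p = 0.0125). Ndufa11, also of complex I, rose by 0.73 ± 0.20 (adjusted p = 0.0204). In complex III, Uqcrc2 fell by 0.33 ± 0.10 (adjusted p = 0.0328), and in complex V, Atp5md fell by 0.69 ± 0.21 (adjusted p = 0.0401). The number called depended on the libraries and the fit. Without HFD female 1 and 4, 3 were lower and 0 higher. Without ND female 3, 2 were lower and 0 higher, and voom and a fit of the groups compared alone called 0. In these fits and under each scaling the median ran from -0.19 to -0.07, and voom placed the median of all genes at -0.19, below that of the nuclear subunits (-0.09).

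In HFD against ND males, 7 of the 81 nuclear subunits were higher and 0 lower, with a median of 0.31 against 0.07 for the mitochondrial genes, which was -0.03 on FPKM, and 0.00 for all genes, of which 1.25% were called in either direction. This mitochondrial median was -0.10 without HFD male 2 and 0.28 without HFD male 4. Among them, Cox6b1 of complex IV rose by 0.64 ± 0.12 (edgeR adjusted p = 0.00608). The count of higher subunits was 60 by voom, 38 in a fit of the groups compared alone, 15 with both HFD female 1 and 4 left out, 12 with the latter alone left out, 3 without HFD male 2 or 3 and 2 without ND male 1, 2 or 3. By the library numbers in place of the column names, 8 were lower and 0 higher, with a median of -0.35. Against LPD males, 8 were higher and 0 lower (2.41% of all genes called in either direction), with medians of 0.35 for nuclear subunits and -0.06 for the mitochondrial genes (0.18 with voom and without HFD male 4). Leaving out single libraries gave 1 to 11, with 1 without HFD male 2 or LPD male 1 and 2 without HFD male 3, and voom gave 55. Between HFD males and HFD females, 25 of 81 were higher in males and 0 lower, beside 9.91% of all genes called and 7.46% as higher. The medians were 0.45 for nuclear subunits, 0.19 for the mitochondrial genes and 0.09 over all genes, and the mitochondrial one was -0.06 on FPKM, 0.02 on library totals and 0.03 to 0.39 leaving out single libraries. Among them was Atp5e, the epsilon subunit of ATP synthase, at 1.16 ± 0.16 (edgeR adjusted p = 8.7e-05). The difference of the HFD effect between sexes called 12 nuclear subunits as higher in males, beside 3.64% of all genes in either direction, among them Cox7c (1.19 ± 0.28, edgeR adjusted p = 0.0182). The count of 25 was 0 by voom and 3 in a fit of the groups compared alone, and the count of 12 was 1 by voom, 6 without ND female 3, 7 without ND male 1 and 23 without HFD female 2. The hepatocyte markers given above were detected, 9 of 9, in both HFD females and HFD males, and their part in these counts was not tested. The lists were chosen with earlier results known, so these counts and medians are a description. Counts of nuclear subunits from the other fits stand without the share of all genes called by each fit. They therefore cannot be read as particular to the subunits.

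LPD females had 0 higher and 3 lower nuclear subunits relative to ND females, with a median of -0.26 against 0.31 for the mitochondrial genes and 0.00 for all genes, of which 0.307% were called in either direction. The 3 were Atp5j2 of complex V (-0.79 ± 0.13, edgeR adjusted p = 0.00506) and Ndufb10 (-0.82 ± 0.15, adjusted p = 0.00966) and Ndufb3 (-0.78 ± 0.17, adjusted p = 0.0372) of complex I. Other fits called more of them lower: 15 with DESeq2, 24 with voom, 12 with the groups compared alone and 16 without HFD female 1 and 4. The share of all genes called by each of these fits is not given, so the larger counts cannot be read as particular to the subunits. Single libraries left out gave 1 to 7, with 1 without LPD female 1 or ND female 3, 5 without HFD female 4, 6 without ND female 4 and 7 without HFD female 1. In LPD against ND males edgeR called 0 of 81, beside 0.187% of all genes, with a median of 0.00. An unadjusted p below 0.05 in edgeR was found for 3 of 81, beside 1081 of all 19235 genes. DESeq2 and limma-trend called 0 there, while voom called 4 higher and 4 lower. In HFD against LPD females edgeR also called 0, beside 8.64% of all genes, with a median of 0.07 against -0.09 for all genes. An unadjusted p below 0.05 in edgeR was found for 16 of 81, beside 4095 of all 19235 genes. There DESeq2 called 3 higher and voom 0, and limma-trend called 3 or 4 higher with a pseudocount of 1 or 0.1. Without HFD female 1 and 4, 6 were higher and 1 lower.

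**Figure D5:**
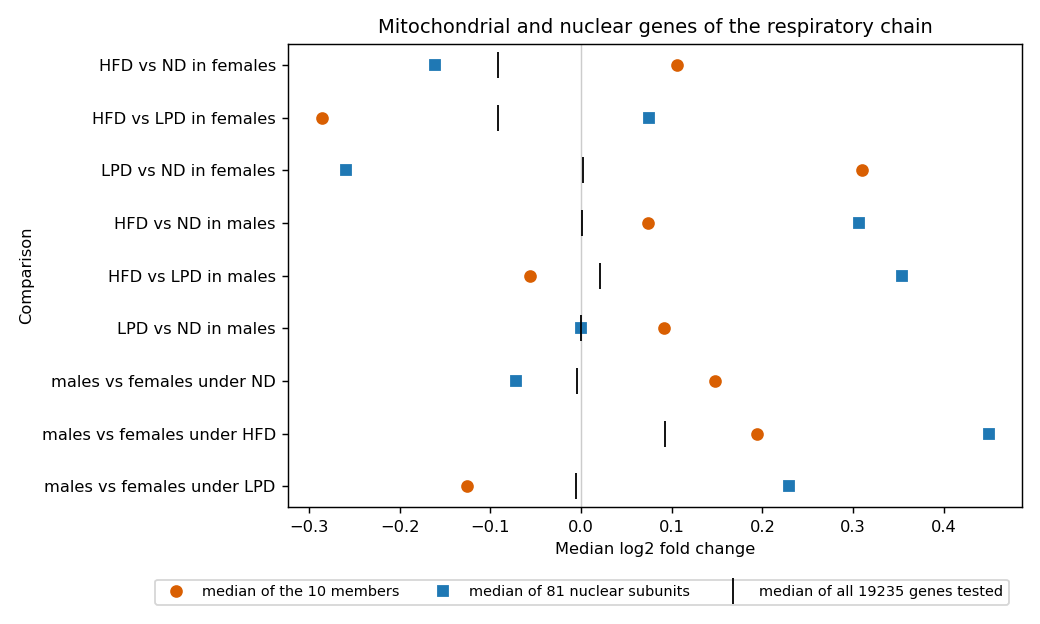
Median log2 fold change of the 10 mitochondrial genes (circles), of 81 tested nuclear subunits of the respiratory complexes (squares) and of all 19235 genes tested (ticks) in 9 comparisons. In HFD against ND males the nuclear median is 0.31 and the mitochondrial one 0.07 (-0.03 on FPKM), and in LPD against ND females they are -0.26 and 0.31.

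Genes that act on the mitochondrial genome and its transcripts were mostly not called. Of 21 tested genes for mitochondrial DNA transcription and maintenance, 0 rose and 1 fell in HFD against ND females, where 7.35% of all genes were called lower, so the list did not exceed that share. The 1 gene was Rrm2b, a ribonucleotide reductase subunit that supplies nucleotides for mitochondrial DNA, with 12.8 ± 6.52 CPM in HFD females and 29.2 ± 4.82 CPM in ND females (SD, n = 4). Its range of 5.20 to 20.1 CPM in HFD females lay below the 22.8 to 34.1 CPM of ND females, a fall of 1.17 ± 0.25 (edgeR adjusted p = 0.00427). It was also lower than in LPD females by 1.09 on the log2 scale (-1.09 ± 0.25, edgeR adjusted p = 0.00727). In HFD males Rrm2b had 27.2 ± 4.62 CPM, above HFD females by 1.07 ± 0.26 (edgeR adjusted p = 0.00769), and the HFD effect differed between sexes by 1.37 ± 0.36 (edgeR adjusted p = 0.0294). Polg2, the accessory subunit of the mitochondrial DNA polymerase, rose by 1.02 ± 0.28 in HFD against LPD males (edgeR adjusted p = 0.0468).

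Of 25 tested genes for mitochondrial RNA processing and stability, 0 rose and 1 fell in HFD against ND females, again below the 7.35% of all genes. Trmt10c, a subunit of the enzyme that cuts transfer RNAs out of mitochondrial precursors, fell by 0.61 ± 0.17 (edgeR adjusted p = 0.0204), with 11.95 ± 0.782 CPM against 18.3 ± 3.22 CPM (SD, n = 4). Slirp, which binds mitochondrial messenger RNAs, had 0 or 1 counts in HFD females and 10 to 24 in LPD females (edgeR adjusted p = 0.0399). The HFD female libraries had few genes with fewer than 10 counts, and the part of this in the difference was not tested. Pnpt1, an RNA-degrading enzyme, was 0.66 ± 0.20 higher in HFD than in LPD females (edgeR adjusted p = 0.0401). Of 11 regulators of mitochondrial gene expression, 1 rose and 0 fell in HFD against ND females, beside 9.33% of all genes called in either direction. It was Sirt1, a deacetylase, which rose by 0.55 ± 0.15 (edgeR adjusted p = 0.0161). In HFD males against HFD females 0 were higher and 2 lower, beside 9.91% of all genes called in either direction. Among the 2 was Yy1, a transcription factor, lower in males by 0.48 on the log2 scale (-0.48 ± 0.10, edgeR adjusted p = 0.00429). Whether any of these differences is connected to that of mt-Nd6 was not tested.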

How the data were processed

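β-cell RNA depleted of ribosomal RNA was sequenced as strand-specific libraries. The authors deposited a table of raw counts per gene and a table of FPKM, and the deposited FPKM matched count / (length × total) within 0.0005. Submitters' processing notes name cutadapt 2.10, STAR 2.7.8a, HOMER, DESeq2 and GRCm38.p6, but the sources used here do not state the counting settings. Columns were matched to samples by name, and 0 value columns were left unmatched. Of 33619 gene IDs, 32946 were in GENCODE M21.

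Genes passing filterByExpr (19235) were fitted with 6 group means in edgeR 4.0.16 (R 4.3.3, TMM, quasi-likelihood test) and p-values were adjusted by Benjamini-Hochberg. The code of the fit was tried on simulated counts with less spread between libraries than these data (common dispersion 0.158). That trial does not measure the error rates here. Shares of counts were compared by exact 2-sided permutation, adjusted over 9 tests. Wilson intervals (95%) cover counting error only. Nuclear copies were found with blastn 2.17.0 (at least 150 aligned bases and 85% identity). The SE of an edgeR log2 difference is its absolute value divided by the square root of the F statistic. Intervals of log2 differences are 1.96 SE and are somewhat narrower than the test implies. For mt-Nd4 in males against females under ND, the interval was 0.02 to 0.99 although the edgeR unadjusted p was 0.0507.

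The members and lists were chosen with earlier results of these data known. The rule for naming genes covered all 10 members in every comparison and up to 3 called genes per list. It also covered every other mitochondrial row, the 5 genes most correlated with the members' mean, Ins1 and Ins2. Single differences were printed for a part of these only. A gene this rule names is not reported here. Alternatives covered scaling, tools (DESeq2 1.42.0, limma 3.58.1), FPKM pseudocounts (1 and 0.1), the filter, the libraries fitted, a replicate block and the library numbers.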

Additional observations from a re-analysis of the deposited data

Results flagged for a closer look

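Within groups of 4 libraries, 7 values lay far from the other 3 of their group by Dixon's ratio, of 84 groups and measures examined, where chance gives about 1 in 20. mt-Nd6 was low in ND female 3 (107.2 CPM against 117 to 118 in the others), although that gap is small, and high in LPD female 4 (153.4 CPM against 83.0 to 92.9). mt-Co1 was low in HFD female 2 (2117 CPM against 2346 to 2388) and in HFD male 4 (1438 CPM against 2599 to 2667), and high in LPD male 2 (3351 CPM against 2059 to 2236). mt-Rnr1, the small ribosomal RNA, had 13713 counts in ND female 4 against 819 to 1239 in the other ND females. mt-Tp, a transfer RNA on the light strand, had 189 counts in LPD male 1 against 150 to 156 in the other LPD males. Unlike the members, mt-Rnr1 and mt-Tp were examined as counts, which are not scaled for depth. In CPM, mt-Tp had 9.38 in LPD male 1 and 7.80, 7.55 and 8.85 in the other LPD males, so it did not stand apart.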

How the results depend on the processing

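For the number of members called of 10, all 11 comparisons gave the same number when scaled without the mitochondrial chromosome, 10 of 11 did with DESeq2's test and 9 of 11 with no filter. The changes are these, and the cause was not tested. In HFD against ND females, 1 was called, 0 with voom quality weights, 2 by library number and 1 to 2 leaving out single libraries (2 without ND female 4). In HFD against LPD females, 2 were called, but 3 with no filter (mt-Nd4 added), 1 on library totals, with DESeq2 size factors, on log2 FPKM plus 1 or plus 0.1 and without HFD female 1 and 4, 0 with voom, with only the groups compared and by library number, and 1 to 2 leaving out single libraries. In LPD against ND females, 0 were called, 1 with voom or only the groups compared and 2 by library number. Males against females gave 1 under HFD, 0 with voom, only the groups compared or library number, 0 under ND (1 by library number) and 0 under LPD (1 with voom). The HFD effect differed between sexes for 0, but for 1 scaled without Ins1 and Ins2, with DESeq2, with no filter, with only the groups compared and by library number, and for 0 to 1 leaving out single libraries (1 without HFD female 2 or 3, HFD male 4, LPD female 1 or 4, or LPD male 4). The difference of the LPD effect was 0, and 1 by library number.

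Of the 4 called differences, 2 turned direction, both by library number: mt-Nd6 was 0.98 in HFD against ND females and mt-Nd5 0.014 in HFD against LPD females. The uncalled difference of the HFD effect on mt-Nd6 was then -0.90. Of all 110 differences, by library number 55 turned sign, with voom 19, in each FPKM fit 13 and on library totals 9. Leaving out single libraries, the called mt-Nd6 differences ran from -1.21 to -1.03 against ND, -1.08 to -0.75 against LPD and 0.79 to 1.05 between sexes, called in 24 of 24 each, and mt-Nd5 from -0.67 to -0.40, called in 18 of 24. Replicate numbers did not pair the samples: deviations of same-numbered libraries correlated at -0.072 to 0.114. With the replicate block, 1 member was called in HFD against LPD females (mt-Nd5 adjusted p = 0.0533), and the block changed no other call. Library totals moved the median of all genes by up to 0.17. The share of counts gave 0 of 9 differences in every setting, but a single fully separated comparison could not have passed after adjustment. Depth limits mt-Co2, mt-Co3 and mt-Atp6, with 18 to 145 counts.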
